A study of Mus musculus with 56 samples.

Results

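Dbp, Tef and Hlf encode the proline and acidic amino acid-rich (PAR) basic leucine zipper transcription factors, and Nfil3 (also called E4bp4) encodes a basic leucine zipper factor that binds the same DNA element. These 4 genes, selected by name, were 4 of the 17564 genes measured in the anterior hypothalamus of 56 female C57BL/6J mice that were 9 weeks old. The mice were kept on 12 h of light and 12 h of dark and had food for 7 days only in the light phase (day time-restricted feeding, DRF, the misaligned schedule for a nocturnal animal) or only in the dark phase (night time-restricted feeding, NRF). In each regimen 4 mice were killed at each of 7 zeitgeber times, ZT0 to ZT24 in steps of 4 h, where ZT0 is lights-on and ZT24 is the same clock time 1 day later in other mice. Both groups were on a restricted schedule, so each difference is between one feeding window and the other. Each value is 1 mouse, and p-values measure the spread between these mice.

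In the textbook account, the clock activators BMAL1 (the product of Arntl) and CLOCK bind E-boxes and drive transcription of the PAR bZIP genes. The PAR bZIP proteins in turn activate genes through the D-box, while NFIL3 represses the same sites and is itself controlled through ROR elements by REV-ERB repressors and ROR activators. This output arm therefore links clock time to detoxification, pyridoxal and other metabolic genes in liver, kidney and brain. The dissected block holds the suprachiasmatic nucleus (SCN) together with many other nuclei, and in bulk RNA fewer cells of a type and less RNA per cell cannot be told apart.

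All 4 transcripts passed the filter on low values. In the GRCm38.p6 assembly, Dbp (NCBI Gene 13170) lies at chr7:45705100-45710203, Tef (21685) at chr15:81802673-81826863, Hlf (217082) at chr11:90336535-90390917 and Nfil3 (18030) at chr13:52967209-52982878. The 3′ end of Dbp shares 741 bases with Sphk2 on the opposite strand, and how strand was treated in counting is not given in the sources used here, so reads in that stretch are uncertain. Sphk2 itself lay between 28.6 and 50.9 CPM (read counts scaled to a common library size) over all mice and its amplitude on the log2 scale was 0.07 in DRF and 0.09 in NRF, against 0.40 and 0.73 for Dbp.

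The 250 bases before each RefSeq start were searched on both strands for the E-box CACGTG, the related CACGTT, the D-box TTANGTAA and the ROR core AGGTCA, since these are the elements through which the family is known to be wired. Over 32851 mouse promoters of this length the letters CACGTG occurred in 6.02%, CACGTT in 3.85%, TTANGTAA in 2.06% and AGGTCA in 14% of windows. The letters were found at Tef and Nfil3, and the windows of Dbp and Hlf held none of the 4 patterns. The RefSeq starts of the promoter table are not always the outer end of the gene as given above: 147 of the 250 bases searched at Dbp, and all 250 at Nfil3 and at the second Tef start, lie inside the gene, and the sequence before the outer 5′ ends of Dbp and Nfil3 was not searched. The matches stand in capitals below, 5′ to 3′ on the strand of the gene.
Tef, first RefSeq start, chr15:81802534-81802563, plus strand: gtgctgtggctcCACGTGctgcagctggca
Tef, second RefSeq start, chr15:81811264-81811293, plus strand: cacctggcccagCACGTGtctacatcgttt
Nfil3, chr13:52981034-52981063, minus strand: ggcgctcggaacTGACCTactaacacacat
The E-box of the first Tef start lay 127 to 122 bases before it, where GENCODE annotates an untranslated exon, and that of the second start 138 to 133 bases before it in an intron. The Nfil3 match, the reverse complement of AGGTCA, lay 12 to 7 bases before the start in an untranslated exon. A match is a description of the letters and not evidence of binding.

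Normalized library sizes lay between 29591266 and 34493344 reads. Of 13 markers of the anterior hypothalamus and SCN, among them Avp, Vip, Six6 and Oxt, every one was above 0 in all mice. Of the pituitary genes, Prl and Gh were at 0 in 41 and 38 of 56 mice. Cga was at 0 in 25 and reached 13.8 CPM, and Tshb was above 0 in all mice, with a median of 10.2 CPM. In 2 libraries, DRF ZT16 replicates 3 and 4, expression rose more steeply with GC content than in the others. Their slopes lay 4.96 and 7.13 scaled median absolute deviations from the median, the next library being at 2.36. The scaling matches the SD of a normal distribution. Differences at ZT16 are therefore given with and without these 2 libraries.

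Per kilobase of exon, Tef was the most abundant of the 4 in the anterior hypothalamus and Nfil3 the least. Over 28 mice the mean for Tef was 41.2 ± 2.79 CPM per kb (SD) in DRF and 38.9 ± 2.11 in NRF. Dbp followed with 18.5 ± 4.83 in DRF and 19.96 ± 8.17 in NRF, and Hlf with 15.7 ± 2.09 and 17.2 ± 2.94. Nfil3 had 5.18 ± 0.719 in DRF and 5.32 ± 0.845 in NRF. Over all time points the ranges of Dbp and Hlf overlapped in both regimens. Those ranges include the change over the day, so they do not rank Dbp and Hlf at a given time. In NRF at ZT8, Dbp made up 36.6% of the summed CPM per kb of Dbp, Tef and Hlf, and Hlf 18.2%. In NRF at ZT24 the order was reversed, with 17.7% for Dbp and 25.2% for Hlf. Tef (lowest mouse 35.1) stayed above every Dbp value (highest mouse 34.8). Nfil3 (highest mouse 6.93) stayed below every Dbp and Hlf value.

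**Figure D1:**
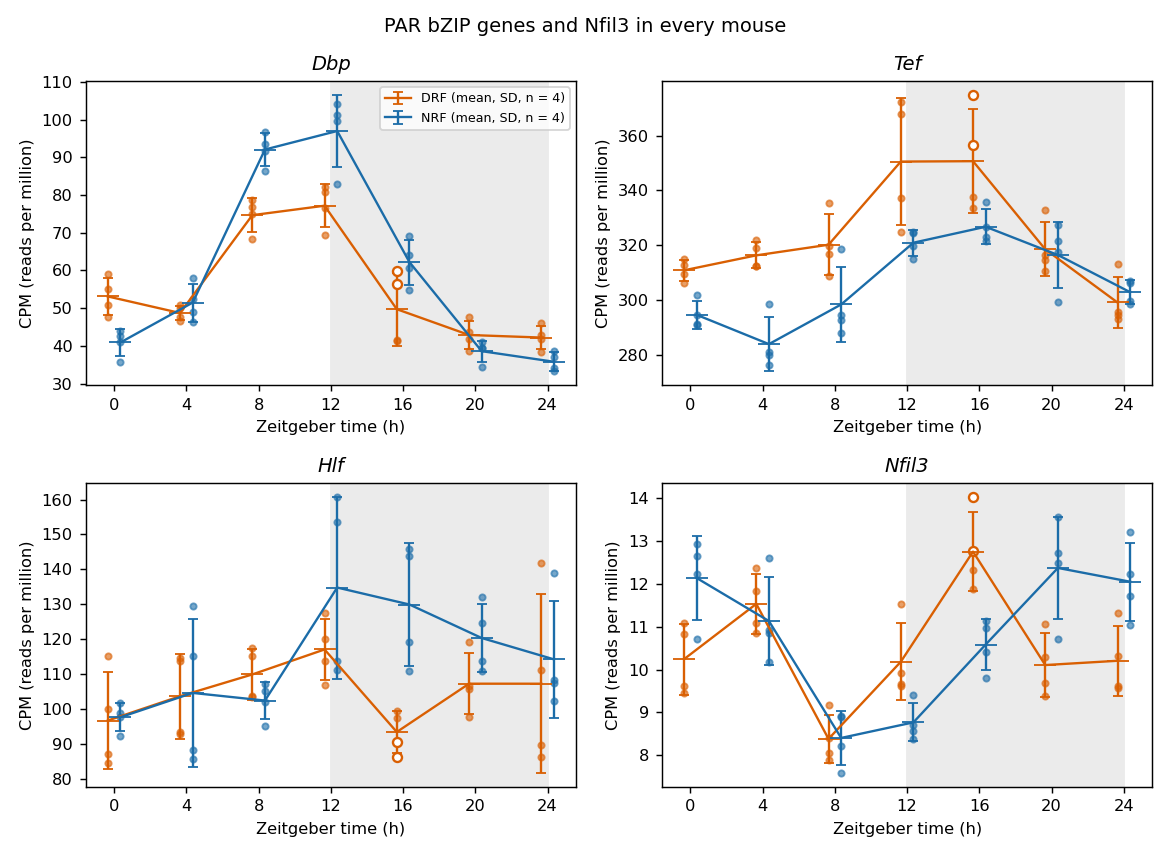
CPM (vertical axes, which do not start at 0) against zeitgeber time (horizontal axes, h) for the 4 genes; each dot is 1 mouse, bars are the mean and SD of 4 mice, open circles are the 2 DRF ZT16 libraries that stand apart, and grey marks the dark phase. The NRF means of Dbp reach 97.0 CPM at ZT12 against 77.2 in DRF, and the DRF means of Tef lie above the NRF means at 6 of 7 times.

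Rhythms were called by JTK_CYCLE combined with Lomb-Scargle over periods of 20 to 28 h, with Benjamini-Hochberg adjustment over all 16245 transcripts tested. In NRF all 4 genes were rhythmic, against 30.9% of all transcripts, and Dbp ranked 2 of 16245. The adjusted p was 5.17e-09 for Dbp, 4.81e-06 for Tef, 1.28e-06 for Nfil3 and 0.00362 for Hlf. In DRF only Dbp (adjusted p = 0.000915) and Tef (0.00723) were called, against 1.08% of all transcripts, and Hlf and Nfil3 each had an adjusted p of 1. The DRF call of Dbp was lost without replicate 3 (0.174) or 4 (0.0992), that of Tef without any 1 of the 4 replicate numbers (0.074 to 0.264) or without ZT16 (0.224), and the NRF call of Hlf without replicate 1 (0.0951) or 2 (0.277). Without the 2 libraries that stand apart Dbp (0.00226) and Tef (0.0289) kept their DRF calls. A call in NRF and none in DRF does not show a difference, which was tested directly.

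That test, a limma F-test of the 24-h cosine and sine terms between regimens on log2(CPM + 1), gave a difference in rhythm for Dbp and Nfil3, 2 of the 4 genes, against 11.2% of 15850 transcripts. Both had the smaller amplitude in DRF, a direction in which 9.28% of transcripts were called. The adjusted p was 0.000601 for Dbp, 0.0106 for Nfil3, 0.0914 for Hlf and 0.0996 for Tef. The Nfil3 call was lost without replicate 1 (0.0711) or 3 (0.0873) and without ZT24 (0.0513).

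At single time points, 6 of the 28 comparisons of a gene at a time passed limma's test and 8 had groups that did not overlap. Over all transcripts the calls ran from 0.145% at ZT8 through 0.284% at ZT24, 1.16% at ZT20 and 1.62% at ZT12 to 4.08% at ZT4, 4.75% at ZT0 and 20.1% at ZT16. The 8 separations fell at ZT0 (2 genes, against 14.5% of transcripts), ZT4 (1, 14.1%), ZT8 (1, 9.62%), ZT12 (2, 6.36%) and ZT16 (2, 7.96%), and there was 0 at ZT20 (8.19%) and ZT24 (7.77%).

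Dbp, a classic high-amplitude output gene of the clock, oscillated with a smaller amplitude in DRF. The fitted amplitude was 0.40 ± 0.05 (SE) on the log2 scale in DRF and 0.73 ± 0.05 in NRF, a difference of -0.33 with a 95% interval from -0.46 to -0.20. In fold terms the fitted peak stood 1.74-fold above the trough in DRF and 2.75-fold in NRF. The peak came at ZT9.73 ± 0.466 in DRF and ZT10.5 ± 0.261 in NRF, and the interval of the shift, -1.85 to 0.30 h, contained 0.

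Near the peak of the Dbp cycle the DRF mice were lower. At ZT12 the DRF mice had 76.5, 69.3, 82.1 and 80.9 CPM and the NRF mice 101, 104, 99.8 and 82.9. At ZT8 the DRF mice had 78.6, 68.4, 74.9 and 76.8 CPM and the NRF mice 86.4, 96.6, 93.6 and 91.7. Every DRF mouse was below every NRF mouse at these 2 times, a separation that 6.36% of transcripts showed at ZT12 and 9.62% at ZT8. The limma differences, -0.32 at ZT12 (adjusted p = 0.0531) and -0.30 at ZT8 (0.145), did not pass the threshold over all transcripts. Both passed without the 2 libraries that stand apart (0.0147 and 0.0479). Those libraries are from ZT16, so the 2 estimates did not change. Over all transcripts the calls rose from 256 to 671 at ZT12 and from 23 to 134 at ZT8. Without any 1 replicate number neither difference was called. The limma adjusted p then ran from 0.0683 to 0.416 at ZT12 and from 0.139 to 0.672 at ZT8.

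At ZT0 the order was the opposite. The DRF mice had 59.0, 55.2, 50.8 and 47.6 CPM and the NRF mice 35.8, 44.0, 42.7 and 41.1. All DRF mice were above all NRF mice, as for 14.5% of transcripts in either direction, and the difference of 0.37 ± 0.09 (SE) passed the limma test (adjusted p = 0.0109; 4.75% of transcripts were called at ZT0). It was lost without replicate 1 (0.26, adjusted p = 0.303) and without replicate 3 (0.41, adjusted p = 0.0704). At ZT24, the same clock time, the DRF mean of 42.2 ± 3.16 CPM was nearer to the NRF mean of 35.8 ± 2.53, and the difference of 0.23 had an adjusted p of 0.411. At ZT20 the difference was 0.15 (limma adjusted p = 0.5), so at the 2 times with the lowest Dbp means the groups overlapped and no difference was called.

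At ZT16 Dbp was lower in DRF. The DRF mice had 41.3, 41.5, 56.3 and 59.7 CPM and the NRF mice 64.0, 60.8, 69.2 and 54.9, and the 2 higher DRF values are those of the libraries that stand apart. The difference was -0.33 ± 0.09 (limma adjusted p = 0.0102, with 20.1% of transcripts called at ZT16). Without those libraries it was -0.57 (adjusted p = 0.0052, with 0.196% of transcripts called). Dbp kept the call in that fit, and the other 3 genes did not. With all libraries it was lost without replicate 1 (-0.24, adjusted p = 0.0767), 2 (-0.26, 0.0535) or 3 (-0.35, 0.154).

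**Figure D2:**
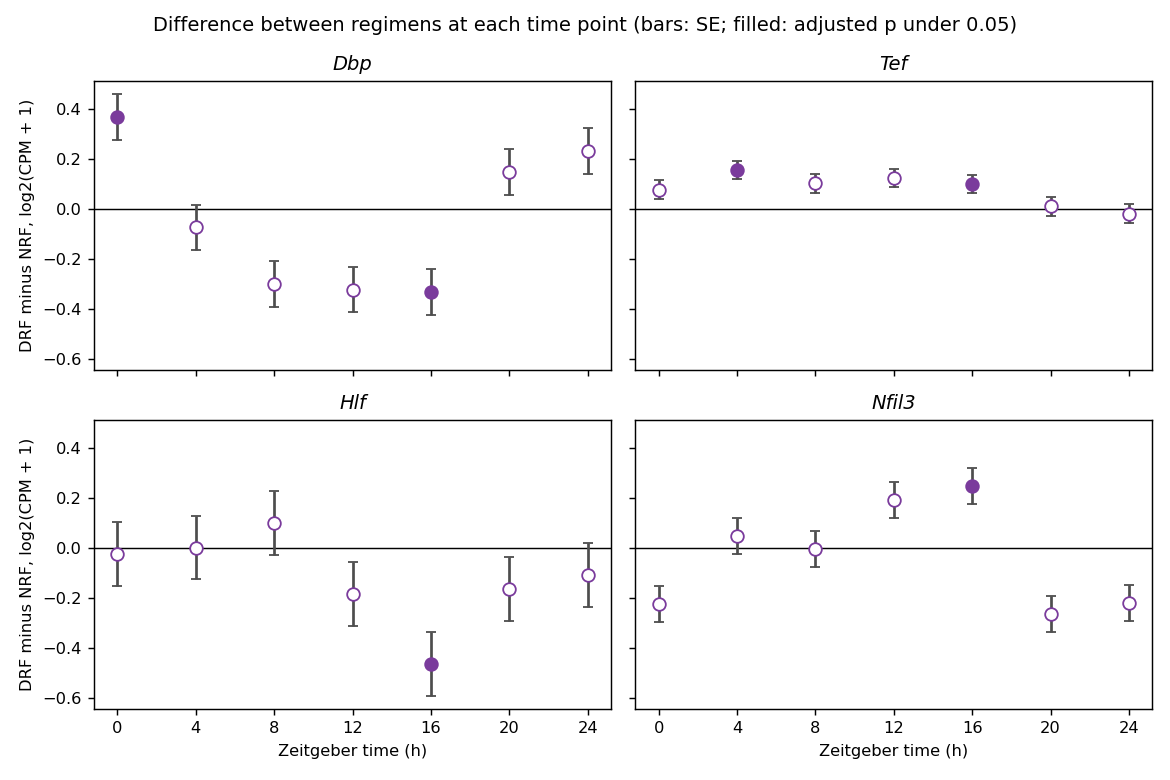
DRF minus NRF on the log2(CPM + 1) scale (vertical axes) at each zeitgeber time (horizontal axes, h); points are limma estimates from 4 mice per regimen, bars are SE, and filled points have an adjusted p under 0.05. Dbp is higher in DRF at ZT0 (0.37) and lower from ZT8 to ZT16, Tef is higher at ZT4 (0.16), and the ZT16 points include the 2 libraries that stand apart.

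Tef, whose product is the thyrotroph embryonic factor, was higher in DRF averaged over the day, with no detected change in amplitude. The 28 DRF mice averaged 324 ± 21.9 CPM (SD) and the 28 NRF mice 306 ± 16.6. The mean difference over the 7 time points was 0.08 ± 0.01 (SE) on the log2 scale, or 5.61%, with a limma adjusted p of 0.000469, and Tef was the only one of the 4 genes called, against 10.6% of transcripts (5.70% higher in DRF). Leaving out each replicate number in turn gave 0.07 to 0.09, each still called. The mean was higher in DRF at 6 of 7 time points, ZT24 being the exception.

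The clearest separation for Tef came early in the light phase, while the DRF mice were feeding. At ZT4 the DRF mice had 319, 312, 322 and 312 CPM and the NRF mice 281, 280, 298 and 276. All DRF mice exceeded all NRF mice, as for 14.1% of transcripts, and the difference of 0.16 ± 0.04 was called (adjusted p = 0.0102; 4.08% of transcripts were called). It kept its size but lost the call without replicate 1 (0.15, adjusted p = 0.095), 2 (0.16, 0.065) or 4 (0.15, 0.0931). At ZT0 the groups again did not overlap, with 306 to 315 CPM in DRF and 291 to 302 in NRF, although the adjusted p was 0.25. At ZT16 the difference of 0.10 was called (0.0458), but it was 0.04 (0.78) without the libraries that stand apart.

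The amplitude of Tef was 0.10 ± 0.01 in each regimen, a fitted peak 1.15-fold above the trough in DRF and 1.14-fold in NRF. The interval of the amplitude difference ran from -0.04 to 0.04. The fitted peak shift, DRF minus NRF, was -2.34 ± 0.762 h, from ZT15.9 ± 0.531 in NRF to ZT13.6 ± 0.547 in DRF, with a 95% interval of the shift from -3.87 to -0.81 h. The shift stayed negative, between -2.51 and -2.14 h, without each replicate number. The joint test of cosine and sine terms did not call Tef with all libraries (0.0996), and gave 0.0508 without the 2 that stand apart and 0.0162 after the trend with GC content and level was removed from each library.

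Hlf, whose product is the hepatic leukemia factor, was the most variable of the 4 genes between mice of a group. Its SD within groups was 0.18 on the log2 scale in DRF and 0.19 in NRF, against medians over all transcripts of 0.12 and 0.10. In NRF the means ran from 97.6 ± 4.01 CPM at ZT0 to 135 ± 26.1 at ZT12, with a fitted amplitude of 0.20 ± 0.05 and a peak at ZT15.4 ± 0.962. In DRF the amplitude was 0.08 ± 0.05 and no rhythm was called, so the DRF peak at ZT9.13 ± 2.62 is poorly defined. The interval of the amplitude difference, -0.28 to 0.02, contained 0. The interval of the shift ran from -11.9 to -0.69 h, and without the libraries that stand apart the shift was -3.83 h and its interval contained 0.

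Only at ZT16 did Hlf separate the regimens. The DRF mice had 97.5, 99.3, 90.5 and 86.2 CPM and the NRF mice 111, 119, 144 and 146. All DRF mice were below all NRF mice, as for 7.96% of transcripts. The difference of -0.46 ± 0.13 had a limma adjusted p of 0.0101, and without the libraries that stand apart it was -0.39 (0.323). The mean difference over the day, -0.12 ± 0.05, was not called (adjusted p = 0.0954).

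Markers of the thalamus moved with Hlf from mouse to mouse. All 4 thalamus markers (Tcf7l2, Prkcd, Lef1 and Rgs4) were measured, none was at 0 in any mouse, and their summed level ran from 188 to 349 CPM in DRF and from 195 to 466 in NRF. As deviations from group means over 56 mice, Hlf followed this sum with Pearson's r = 0.874 (permutation p = 1e-05, the smallest that 100000 resamples can give) and Spearman's rho = 0.866 (permutation p = 1e-05). Adjusted over the 50 relations computed between the 4 genes, 11 marker lists and each other, both permutation p-values were 0.0005. Pearson's r was 0.799 within DRF and 0.933 within NRF, and the relation held without the 2 mice farthest from the median (r = 0.862) and without the libraries that stand apart (r = 0.879).

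At ZT16, where the Hlf groups did not overlap, those of this sum did not overlap either, a separation that 7.96% of single transcripts showed. The sum lay between 228 and 244 CPM in DRF (242 and 244 in the 2 mice whose libraries do not stand apart). In NRF it lay between 284 and 402. Its NRF median was highest at ZT12, at 355, the time of the highest NRF mean of Hlf. In DRF the Hlf mean was also highest at ZT12 (117 CPM). The DRF median of the sum was 216 at that time and highest at ZT24, at 261. Of the 4 markers, 2 had a lower mean level in DRF by the limma test, 1 was lower at ZT16 and none was higher. Over all transcripts, in either direction, 10.6% were called for the mean level and 20.1% at ZT16 with all libraries. Markers of cortex and hippocampus (4 of 4 measured, Emx1 at 0 in 4 mice; summed level 5.98 to 29.4 CPM in DRF and 5.34 to 33.1 in NRF) also followed Hlf (r = 0.664, rho = 0.612, adjusted permutation p = 0.00075 and 0.0035; r = 0.609 without the 2 farthest mice). For this list r was 0.405 within DRF and 0.869 within NRF. Its sum did not overlap at ZT16 either, with 6.63 to 14.2 CPM in DRF and 15.99 to 22.2 in NRF. The 2 DRF mice whose libraries do not stand apart had 9.15 and 6.63 CPM. Of these 4 markers, however, 1 was higher in DRF at ZT16 by the limma test with all libraries, and 0 were lower. No other relation among the 50 passed, and none of the relations of Dbp, Tef or Nfil3 with the marker lists did. The part of the dissection in the Hlf values was not tested.

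**Figure D3:**
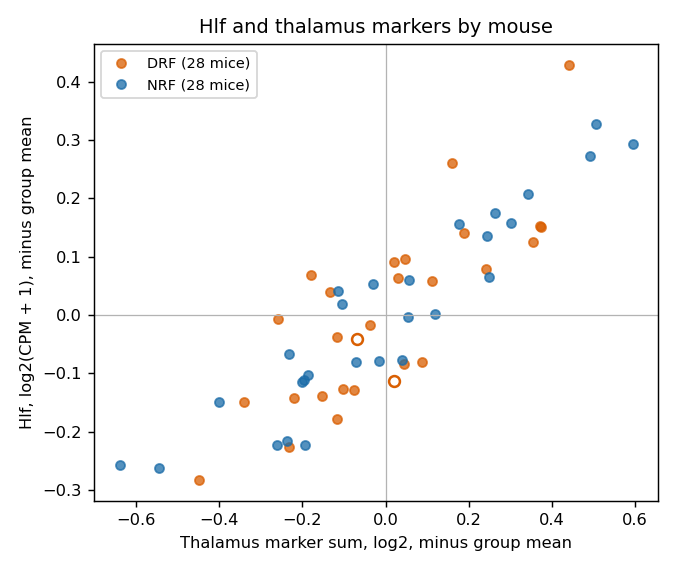
Hlf on the log2(CPM + 1) scale (vertical axis) against the log2 sum of 4 thalamus markers (horizontal axis), both as deviations from the mean of the mouse's own group; each point is 1 of 56 mice and open circles are the 2 DRF libraries that stand apart. The points of both regimens run along one rising line, with r = 0.799 in DRF and 0.933 in NRF.

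Nfil3, the repressor of the set, had the later peak and, like Dbp, a smaller amplitude in DRF. The amplitude was 0.11 ± 0.04 in DRF and 0.26 ± 0.04 in NRF, and the 95% interval of the difference ran from -0.26 to -0.04. Without replicate 1 or without replicate 2 that interval contained 0, with amplitude ratios of 0.47 and 0.49. In NRF the means ran from 8.41 ± 0.635 CPM at ZT8 to 12.37 ± 1.190 at ZT20. In DRF the trough was also at ZT8, at 8.38 ± 0.566 CPM, but the means were highest at ZT16 (12.8 ± 0.928, and 12.1 over the 2 mice whose libraries do not stand apart) with a further high value at ZT4 (11.5 ± 0.692). The highest DRF mean was thus 1.52-fold above the lowest, close to the 1.47-fold of NRF, although the fitted 24-h amplitude was 0.42 of that in NRF.

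Around the start of the dark phase Nfil3 was higher in DRF. At ZT12 the DRF mice had 9.93, 9.67, 9.61 and 11.5 CPM and the NRF mice 8.39, 9.40, 8.57 and 8.71. At ZT16 the DRF mice had 11.9, 12.3, 14.04 and 12.8 CPM and the NRF mice 10.96, 10.4, 9.81 and 11.1. All DRF mice were above all NRF mice at these 2 times, as for 6.36% and 7.96% of transcripts. The limma difference was called at ZT16 (0.25 ± 0.07, adjusted p = 0.0151; 0.18 and 0.429 without the libraries that stand apart) and not at ZT12 (0.19, adjusted p = 0.153).

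After ZT16 the estimates had the opposite sign. At ZT20 the DRF mice had 10.3, 9.38, 9.68 and 11.1 CPM and the NRF mice 13.6, 12.5, 12.7 and 10.7, so the groups overlapped by 1 NRF mouse. The estimate of -0.27 had a limma adjusted p of 0.0513, and 0.0335 without the libraries that stand apart. At ZT0 it was -0.22 (0.0618, and 0.0441 without those libraries), and at ZT24 -0.22 (0.255 and 0.175). Those libraries are from ZT16, so these estimates did not change without them. Over all transcripts the calls rose from 184 to 384 at ZT20 and from 753 to 1170 at ZT0. The fitted peak was at ZT18.3 ± 1.28 in DRF and ZT22.0 ± 0.592 in NRF, a shift of -3.71 h with an interval from -6.55 to -0.88 h. That shift rested on ZT16: it was -1.96 h without the 2 libraries that stand apart and 1.48 h without ZT16, and Nfil3 had no called rhythm in DRF.

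**Figure D4:**
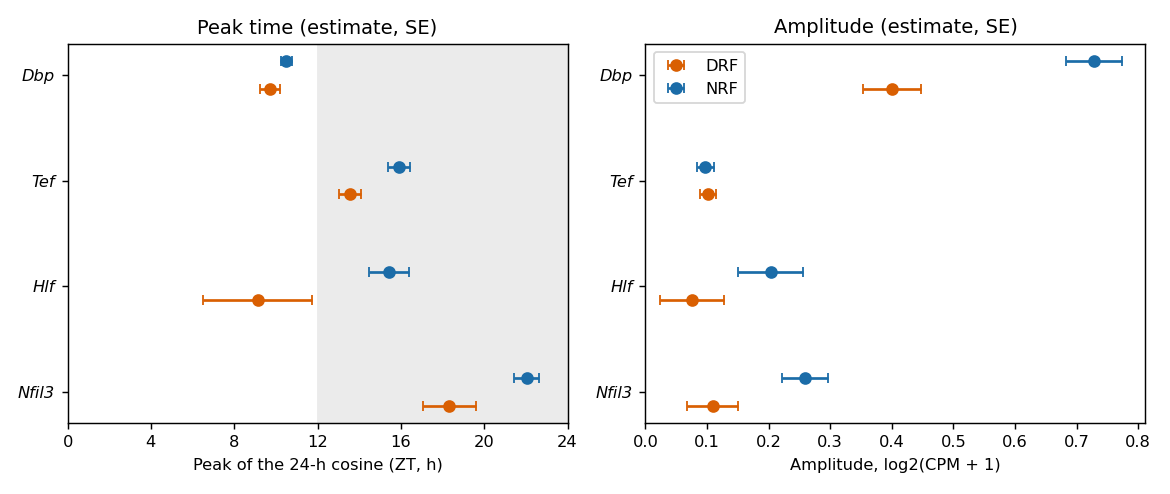
Peak time (left, ZT in h, grey for the dark phase) and amplitude on the log2(CPM + 1) scale (right) of a 24-h cosine for each gene and regimen; points are estimates from 28 mice and bars are SE. Dbp peaks late in the light phase in both regimens with amplitudes of 0.40 and 0.73, whereas the DRF peaks of Hlf and Nfil3 have wide errors.

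The order of peaks in NRF was Dbp, then Hlf and Tef, then Nfil3. Hlf and Tef lay 0.47 h apart with an SE of 1.10 h and do not differ beyond their error, whereas Tef followed Dbp by 5.40 ± 0.592 h and Nfil3 followed Tef by 6.14 ± 0.796 h. Nfil3 thus peaked 11.5 ± 0.647 h after Dbp, the longest lag between any pair. In DRF, Tef followed Dbp by 3.83 ± 0.718 h and Nfil3 followed Dbp by 8.60 ± 1.36 h. These errors treat the genes as independent although they come from the same mice. Nfil3 had no called rhythm in DRF and its shift from NRF reversed without ZT16, so its place in the DRF order is uncertain.

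Summed per kilobase, the 3 PAR bZIP transcripts ranged less than Dbp alone. In NRF the sum ran from 65.7 ± 1.14 CPM per kb at ZT0 to 93.4 ± 5.68 at ZT12, and in DRF from 68.2 ± 3.68 at ZT24 to 87.9 ± 4.52 at ZT12. Dbp made up 36.6% ± 1.25 of the sum at ZT8 in NRF and 30.4% ± 1.54 in DRF, and at ZT24 17.7% and 20.7%. Tef was the largest part at every time in both regimens, from 43.8% at ZT12 in NRF to 59.3% at ZT16 in DRF (59.9% over the 2 mice whose libraries do not stand apart).

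The ratio of that sum to Nfil3 describes the activators against the repressor at the level of RNA. In NRF it was highest at ZT12 (21.6 ± 1.95) and lowest at ZT0 (11.04 ± 1.13). In DRF it was highest at ZT8 (19.9 ± 1.71) and lowest at ZT16 (12.0 ± 0.673, and 11.9 over the 2 mice whose libraries do not stand apart). At ZT16 the 4 DRF mice lay between 11.2 and 12.8 and the 4 NRF mice between 14.7 and 17.7, and at ZT20 and ZT24 the mean was higher in DRF (14.3 against 11.7, and 13.6 against 11.4). These ratios are a description of the 4 genes, with no test.

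**Figure D5:**
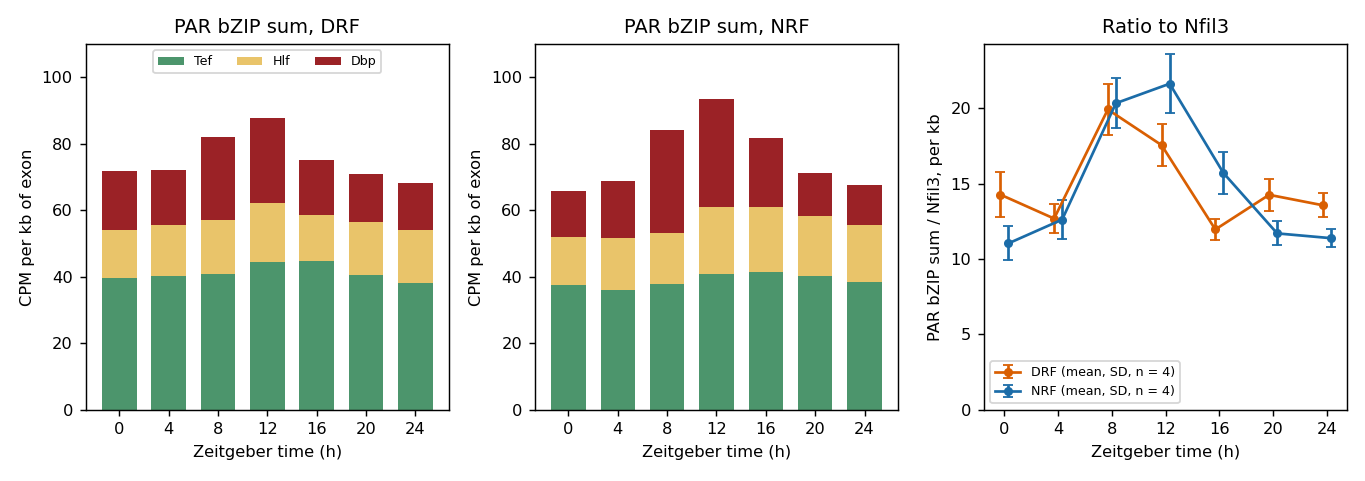
Left and middle, mean CPM per kb of exon (vertical axes, from 0) of Tef, Hlf and Dbp stacked at each zeitgeber time (horizontal axes, h) in DRF and NRF; right, the ratio of their sum to Nfil3 per kb as mean and SD of 4 mice. The ratio is highest at ZT8 in DRF (19.9) and at ZT12 in NRF (21.6).

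Between ZT0 and ZT24, the same clock time in other mice, no gene differed by exact permutation after adjustment, although some groups separated. In DRF, Dbp averaged 53.1 CPM at ZT0 and 42.2 at ZT24, with every ZT24 mouse below every ZT0 mouse, as for 9.44% of transcripts in either direction. In NRF, Hlf averaged 97.6 CPM at ZT0 and 114 at ZT24, with every ZT24 mouse above, as for 21.6% of transcripts. The exact permutation p was 0.0286 for each, two-sided and the smallest that 4 against 4 mice allows, and 0.114 adjusted over the 8 comparisons made by exact permutation. Nfil3 differed least, by 0.00 in DRF and -0.01 in NRF on the log2 scale.

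The regulators that act on this family through E-boxes were mostly rhythmic in NRF. Of 11 such genes, 9 were rhythmic in NRF and 2 in DRF (Per2 and Per3), and 4 differed in rhythm between regimens (Arntl, Per1, Bhlhe41 and Ciart), against 30.9%, 1.08% and 11.2% of all transcripts. The amplitude was lower in DRF for 10 of the 11, and its median over the list was 0.11 under DRF but 0.19 under NRF, beside 0.06 and 0.07 over all transcripts, of which 9810 of 15850 had the lower amplitude in DRF. In NRF the amplitudes ran from 0.08 for Npas2, a paralog of Clock, to 0.46 for Ciart, a repressor of BMAL1 and CLOCK. The mean level was higher in DRF for 3 (Per1, Per3 and Cry2) and lower for 1 (Arntl), in limma's test. Over all transcripts 10.6% were called, 5.70% as higher in DRF.

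Among the regulators of Nfil3 through ROR elements, Nr1d1 (which encodes REV-ERBα), Nr1d2 and Rorb were rhythmic in NRF, and Nr1d1 was also rhythmic in DRF. Over all transcripts these calls were made for 30.9% and 1.08%. The rhythm differed between regimens for Nr1d1, Nr1d2 and Rorb in limma's test, which called 11.2% of all transcripts. Nr1d1 had an amplitude of 0.48 in NRF and 0.29 in DRF, and it peaked at ZT8.72 in NRF and ZT7.54 in DRF. In each regimen the lowest Nfil3 mean was at ZT8.

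Clock genes that carry D-boxes had the lower amplitude in DRF in 8 of 8 cases, as did 9810 of all 15850 transcripts. Their medians were 0.16 in DRF and 0.24 in NRF, beside 0.06 and 0.07 over all transcripts. Of these 8, which share members with the lists above, 7 were rhythmic in NRF and 3 in DRF, and 4 differed in rhythm. The shares over all transcripts were 30.9%, 1.08% and 11.2%. Their NRF amplitudes ran from 0.14 for Cry1 to 0.48 for Nr1d1. All but Rora were rhythmic in NRF, and Rora, with amplitudes of 0.21 in DRF and 0.22 in NRF, was called in neither regimen. The lists share members and were chosen with earlier results of these data known, so their counts are a description.

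Genes known as PAR bZIP targets, mostly from liver, were also measured. Of 8, 7 were in the table and 6 passed the filter. Of these 6, 1 was rhythmic in NRF (Por, cytochrome P450 oxidoreductase) and 0 in DRF, beside 30.9% and 1.08% of all transcripts. By limma 0 differed in rhythm or mean level, beside 11.2% and, in either direction, 10.6% of all transcripts. With 6 genes, a count of 0 does not set them apart from these shares. At an unadjusted p under 0.05, 1 of the 6 differed in rhythm (Por) and 2 in mean level (Por and Pdxk). The share of all transcripts at that threshold was not counted, so these counts have no background beside them. At ZT16, where 20.1% of all transcripts were called, 2 were higher in DRF, Por by 0.18 (adjusted p = 0.0335) and Pdxk by 0.16 (0.0206), and without the libraries that stand apart these were 0.08 (0.715) and 0.06 (0.707) by limma. Pdxk, the pyridoxal kinase gene, was the most abundant at 340 CPM in DRF and 328 in NRF, with amplitudes of 0.06 and 0.01. Cyp2a5, a liver cytochrome, was low, at 0.22 and 0.25 CPM.

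Other bZIP genes, shown to place the 4 on a scale, spanned their range of level. Per kilobase, Atf4, the stress response factor, had 46.1 CPM per kb and Cebpd 0.551. Of these 6, 3 were rhythmic in NRF (Atf4, Cebpd and Cebpg) and 0 in DRF, against 30.9% and 1.08% of all transcripts. By limma 1 differed in rhythm (Cebpg) and 1 had a lower mean level in DRF (Atf4), against 11.2% and, in either direction, 10.6%. In NRF the amplitudes ran from 0.06 for Cebpb to 0.16 for Cebpd. This was below the 0.73 of Dbp, 0.26 of Nfil3 and 0.20 of Hlf, whereas the 0.10 of Tef lay within that span. In DRF the amplitudes of these bZIP genes ran from 0.02 for Atf5 to 0.21 for Cebpb. Only the 0.40 of Dbp lay above that span. The 0.11 of Nfil3, 0.10 of Tef and 0.08 of Hlf lay within it. By amplitude, Dbp stood above 99.9% of all transcripts in NRF and 99.7% in DRF, Nfil3 above 97.6% and 83.5%, Hlf above 94.6% and 67.6%, and Tef above 66.8% and 80.7%.

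The transcripts most like each gene over the 56 mice were found by Pearson's r on log2(CPM + 1) among 13662 transcripts with a mean of at least 1. The mice share feeding groups, time points and dissection, so the values are a description. Dbp was closest to Ciart (0.866), Bdh1 (0.803), Nr1d1 (0.793), Slc7a5 (0.792) and Tspan4 (0.790), and most opposite to Arntl (-0.829), Ccdc190 (-0.804) and Peg10 (-0.783). Tef was closest to Cables1 (0.7999), Per2 (0.761), Klf15 (0.737), Per3 (0.734) and Flcn (0.702), and most opposite to Fabp7 (-0.745), Slc16a1 (-0.719) and Id2 (-0.713).

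Hlf was closest to Rora (0.855), Rasgef1b (0.848), Mrvi1 (0.848), Pdp1 (0.845) and Gabra4 (0.845), a set with no core clock gene other than Rora. Its most opposite transcripts were Adgrg1 (-0.737), Mboat7 (-0.736) and Sema4f (-0.731). Nfil3 was closest to Spats2l (0.766), Ccdc190 (0.762), Arntl (0.753), Wdr82 (0.749) and Ak4 (0.747), and most opposite to Ccdc62 (-0.731), Exoc2 (-0.718) and Aim2 (-0.706). Arntl and Ccdc190 were thus among the closest to Nfil3 and among the most opposite to Dbp.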

How the data were processed

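Anterior hypothalamus poly(A) RNA of 56 mice was sequenced. The authors trimmed, aligned (HISAT2, Bowtie2; GRCm38.p6) and quantified (RSEM) the reads, with TMM scaling, and deposited values named TPM. From the values, the deposited unit is a score: log2(CPM + 1) divided by exon-union length and rescaled so that each library sums to 999333 to 999720. CPM was therefore recovered from the scores, and 17131 of 17564 genes gave whole reads or hundredths of a read (tolerance 0.05); the others, 249 not whole and 184 without a length, were not fitted. Strand handling in counting is not given in the sources used here. A count model was not run, and limma replaced it.

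Rhythms in each regimen were tested on the deposited values by JTK_CYCLE and Lomb-Scargle, combined by Fisher's method over 20 to 28 h, keeping transcripts whose score reached 1 in 80% or more of the mice (16245). DRF and NRF were compared with limma 3.58.1 (R 4.3.3) on log2(CPM + 1), pseudocount 1 CPM, for 15850 transcripts: at each time point, over the mean of the 7, and for 24-h cosine and sine terms, each with Benjamini-Hochberg adjustment over all transcripts. Folds are on this scale and understate low genes. Peaks, amplitudes and intervals came from a least-squares 24-h cosine fit with delta-method errors and one residual variance (Python 3.11.15, numpy 2.4.6, scipy 1.17.1); they were not adjusted over the 4 genes alone. The scripts were tested on simulated data. The members and gene lists were chosen with earlier results of these data known; genes named are the members, all list genes that a count turns on, and the 5 most and 3 least similar transcripts of each member. The setting that marks 2 libraries as apart (over 4 scaled median absolute deviations of GC slope), and the GC trend removal, were chosen after seeing the data. One gene of the lists is not reported here.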

Additional observations from a re-analysis of the deposited data

Results flagged for a closer look

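Tef in DRF replicate 3 at ZT24 stood above the other mice of its group, at 313 CPM against 293.2, 294.4 and 295.7. Its gap to the nearest mouse was 0.870 of the range, over Dixon's critical value for 4 mice. Of 56 groups of 4 tested, 1 was marked, and chance marks about 1 in 20.

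Dbp differed in rhythm between the regimens, with a limma adjusted p of 0.000601 and amplitudes of 0.40 in DRF and 0.73 in NRF. Nfil3 also differed, with an adjusted p of 0.0106 and amplitudes of 0.11 and 0.26.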

How the results depend on the processing

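Lomb-Scargle alone called 0 of the 4 genes and 0 transcripts in either regimen, with adjusted p of 1 for Dbp and Tef in DRF and of 0.058 (Dbp and Nfil3), 0.0595 (Tef) and 0.342 (Hlf) in NRF. Without ZT16, 1 gene was rhythmic in DRF (Tef 0.224), 3 shifts or amplitude changes had an interval without 0 instead of 5, the Hlf shift was -2.29 h and the Nfil3 shift reversed to 1.48 h. Without ZT24, 1 gene differed in rhythm (Nfil3 0.0513). Without the libraries that stand apart, 3 shifts or amplitude changes remained past 0, with -3.83 h for Hlf and -1.96 h for Nfil3. On linear CPM the Hlf shift was -6.29 h and its interval contained 0. With the GC trend removed, Tef differed in rhythm (0.0162). The causes were not tested.

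Leaving out each replicate number in turn gave 0 to 1 rhythmic gene in DRF (Dbp 0.0177 to 0.174, Tef 0.074 to 0.264) and 3 to 4 in NRF (Hlf 0.0121 to 0.277), 1 to 2 genes with a rhythm difference (Nfil3 0.0325 to 0.0873), 1 to 5 calls at single time points instead of 6, and 3 to 4 shifts or amplitude changes. Shifts ran from -1.35 to -0.35 h for Dbp, -8.03 to -3.56 h for Hlf and -4.18 to -3.30 h for Nfil3, whose amplitude ratio was 0.36 to 0.49. The number of all transcripts called ran from 62 to 95 for a rhythm in DRF (176 with all mice), 2646 to 3952 in NRF (5024), 433 to 1595 for the rhythm difference (1781) and 430 to 2305 for the mean level (1687). At ZT16 it ran from 26 to 4908 (3179).

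Same-numbered DRF and NRF mice of the same time point did not deviate together (28 pairs, r from -0.54 to 0.25, median -0.012, 6 above 0.1). Whether a number marks anything shared within a regimen or across times was not tested. With a replicate block, 2 genes differed in rhythm (Dbp 0.000907, Nfil3 0.0116) and 7 calls were made at single time points, the added one being Nfil3 at ZT20 (0.045). Which transcripts depth limits was not tested.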
